A study of Homo sapiens with 3 samples.

Results

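The comparison described here is that of LvM3b cells overexpressing miR-551a with control LvM3b cells. Its members were all array probes that carried a gene symbol and had a detection score above 0.99 in the control array, the miR-551a array or both, which gave 14039 probes for 10991 genes, of 36157 probes with a symbol for 24989 genes. LvM3b is a human colon adenocarcinoma line. The series looks for genes that miR-551a and miR-483-5p suppress in these cells, and it holds 3 arrays of total RNA, 1 from control cells, 1 from cells overexpressing miR-551a and 1 from cells overexpressing miR-483-5p. Groups were grown in the same serum-containing DMEM and harvested at the same confluence per the labels; no source used here names the vector, its promoter or whether a line is a clone or a pool. With 1 array per group every difference below is between single cultures, has no replicate check and was not tested; "higher" and "lower" refer to these arrays only.

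MicroRNAs are short RNAs that guide Argonaute proteins to messenger RNAs, mostly through pairing of the seed near their 5′ end with the 3′ end of the message, and they lower the stability or translation of what they bind. A direct target is therefore looked for among messages that are lower when the microRNA is raised, while messages further downstream can differ either way. Brain-type creatine kinase, CKB, has been reported as a target of miR-551a in metastatic colon cancer cells, where extracellular creatine kinase is thought to supply phosphocreatine as fuel.

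The mature sequence is shown because its seed defines the family of messages it can bind. MIR551A lies on chromosome 1 within the span of the gene MEGF6, and the mature form is read from the minus strand at chr1:3560710-3560730 (RefSeq, GRCh38.p14). Among 2545 mature human microRNAs in the RefSeq table, 2 carry this seed, the other being hsa-miR-551b-3p at chr3:168551914-168551934 on the plus strand. Bases 2 to 8, the seed, are in capitals.
hsa-miR-551a: gCGACCCAcucuugguuucca
hsa-miR-551b-3p: gCGACCCAuacuugguuucag
No message was matched to this seed here, because no transcript sequences were used.

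The arrays were alike in median intensity and in the share of probes detected. Median intensity over 48803 probes was 84.9 in control, 87.7 in the miR-551a array and 88 in the miR-483-5p array, and 28.3%, 28.5% and 27.2% of probes were detected. At the detection threshold the faintest detected probe read 110.3 in control and 113.0 in the miR-551a array, and the brightest undetected probe read the same to 1 decimal. Colon epithelial markers were measured for 17 of 18 genes, with KRT20 undetected. Of the markers of other cells, 4 of 12 fibroblast, 2 of 12 leukocyte, 2 of 12 hepatocyte and 0 of 9 endothelial genes were measured, and COL1A1, COL1A2, DCN, PTPRC, ALB and PECAM1 were undetected in both arrays compared. Summed over the brightest probe of each gene, fibroblast markers read 1226.2 in control and 1264.3 with miR-551a, and endothelial markers 734.8 and 764.4. Of 10 smooth muscle and squamous markers 4 were measured, 2 with positive and 2 with negative differences. Their list summed to 1364.7 and 2549.9, of which TAGLN alone made up 110.9 and 1207.1, and their part in the results below was not tested.

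Differences are given on the log2 scale of background-corrected, quantile-normalized intensity, miR-551a minus control, beside the non-normalized intensity of each array. Of the 14039 probes, 92 were at least 2-fold higher with miR-551a (0.655%) and 79 at least 2-fold lower (0.563%), so 53.8% of these were higher (exact binomial 95% interval 46% to 61.4%, counting error only). With median scaling in place of quantile normalization the split was 124 higher and 62 lower, 66.7% higher, and with the authors' deposited normalized values 47 and 20, 70.1% higher. Where only 1 of the arrays detected a probe, the dim value was raised to the lowest detected level of that array and the difference is a bound on this background-corrected scale, written as "at least". Such folds rest on values near the background: of the 15 largest bounds each way, 9 higher and 10 lower ones were past 2-fold, and 3 and 1 were without background correction. A bound that pointed the other way was set to no difference, so such a probe could not read lower in the array that detected it. Most probes lay close together: 90.9% of them differed by less than 1.5-fold, and the median difference was -0.0043. Among the 12730 probes detected in both arrays, the spread was similar at all brightness levels. The SD across these probes lay between 0.327 and 0.382 in 4 equal classes of brightness. Over all 10991 genes the median was -0.0053 and the quartiles -0.203 and 0.195, so signs were split nearly evenly. Of these genes 4.27% were at least 1.5-fold higher and 4.09% lower, and 0.582% and 0.537% at least 2-fold. Counts of list members below are to be read beside these values. Under median scaling the median over probes was 0.062, so signs of small differences depend on the scaling.

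**Figure D1:**
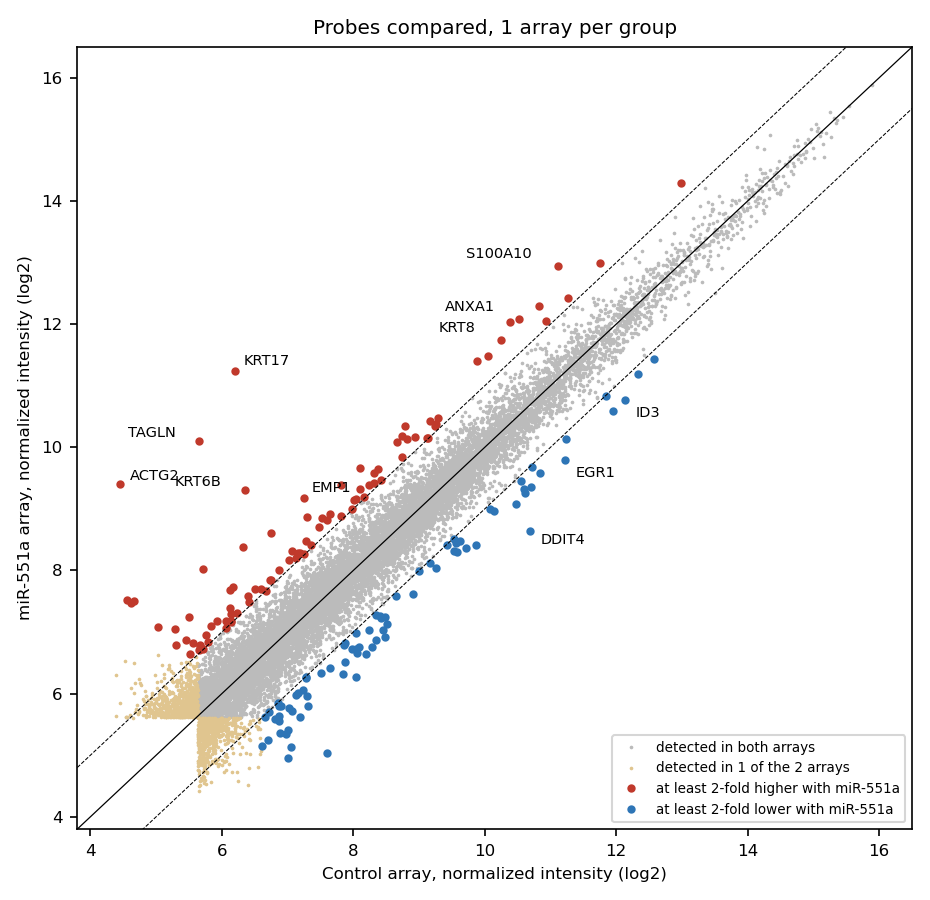
Normalized log2 intensity of every probe compared, control on the x axis and miR-551a on the y axis, with 1 array per group; the solid line marks no difference and the dashed lines 2-fold. Values of undetected probes are drawn as measured, before the bound. The red points at the left, KRT17, TAGLN, ACTG2 and KRT6B, stand farthest from the line, and DDIT4, EGR1 and ID3 are labelled among the blue points below it.

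Probes for the same gene give a check within the pair of arrays. In 2230 genes with at least 2 probes detected in both arrays, the brightest and the second brightest probe differed from each other by a median of 0.197, and in most genes by less than 0.51. The brightest probe was at least 2-fold different for 24 genes, and the second pointed the same way for 22 of them and was itself 2-fold different for 10. S100A10 (1.83 and 1.65), FABP5 (1.48 and 1.56), CXCL8 (1.43 and 1.32), KIT (-1.29 and -1.37), CAV2 (1.20 and 1.10) and MCM10 (1.11 and 1.15) matched closely between their probes. DLEU2 (1.27 and -0.22) and TP53BP2 (-1.07 and 0.16) did not. This scatter covers probes and not cultures. Genes of families with near-identical members (wound keratins, AKR1C enzymes, histones, metallothioneins, HSPA1A and HSPA1B, CKMT1A and CKMT1B) and ribosomal proteins with many pseudogenes may share signal between probes, and their values are uncertain to that extent.

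**Figure D2:**
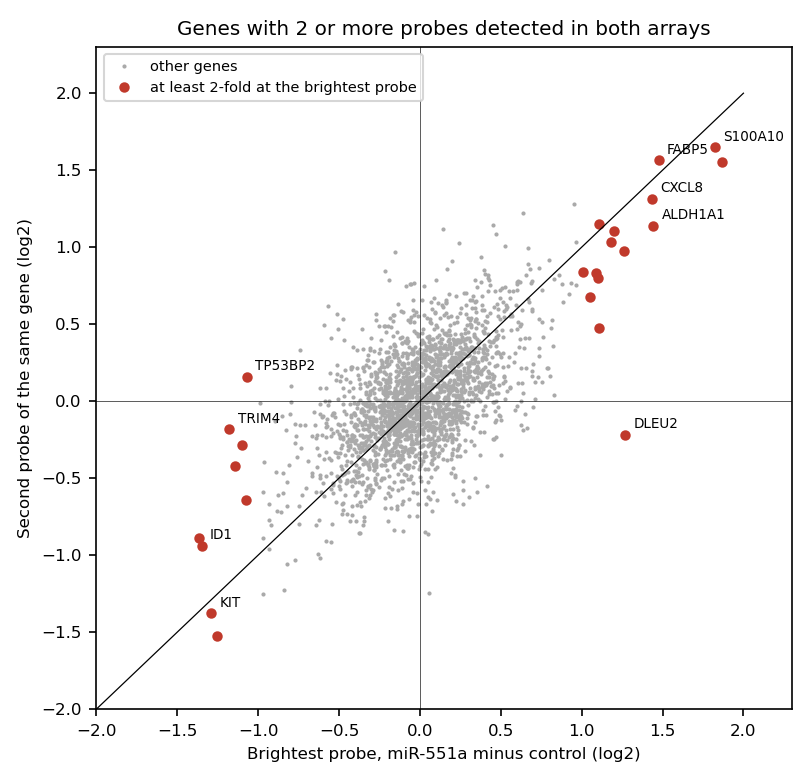
Log2 difference of the brightest probe (x axis) against that of the second brightest probe of the same gene (y axis) for the 2230 genes with at least 2 probes detected in both arrays; the line marks equal values. The 24 genes at least 2-fold different at the brightest probe are in red, and 22 of them lie on the same side of 0 at the second.

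Keratins that epithelia make in wounds, in basal layers and in squamous sites were among the genes with large positive differences. KRT17, a keratin of wounded and hyperproliferative epithelium, read 134.7 in control and 2621.7 in the miR-551a array, with 982.5 in the miR-483-5p array. Its normalized difference was 32.8-fold, and 16.3-fold without background correction. KRT6B, its type II partner in wound epithelium, read 142.3, 733.3 and 367.5 in the same order, and the epithelial keratin KRT80 140.4, 409.7 and 221.6. KRT16, which like KRT17 is a type I wound keratin, read 80.8 in control, where it was undetected, 250.3 with miR-551a and 124.6 with miR-483-5p, and was at least 3.67-fold higher with miR-551a (2.03-fold without background correction). KRT6A was undetected in control at 75.5 and read 158.2, at least 1.86-fold higher (1.33-fold without background correction).

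Of 10 wound and basal keratins 6 were measured and all 6 had positive differences; 4 were at least 2-fold and 5 at least 1.5-fold higher, against 0.582% and 4.27% of all 10991 genes; of all genes 0.537% were at least 2-fold and 4.09% at least 1.5-fold lower. KRT16 and KRT6A were members only through detection in the miR-551a array, so their bounds could not be negative. The median of the 6 was 1.96, beside -0.0053 over all genes. It was 1.20 without background correction and 0.70 with no detection filter. Among probes brighter than the median it was 3.995, from KRT17 and KRT6B alone. Both were dim in control and passed that cut on the mean of both arrays, so this value is no separate check. The basal layer keratins KRT5, KRT14 and KRT15 were undetected in both arrays, as was KRT6C, so the higher level did not extend to the pair that marks basal cells.

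Keratins of simple epithelium differed less. KRT8, the main type II keratin of the gut, read 1233.1 in control and 3667.4 with miR-551a, a difference of 1.49, and KRT19 read 1888.9 and 3373.9 (0.70). KRT18, the usual partner of KRT8, differed by 0.34 over its 2 probes. Of 5 measured simple keratins, 1 was at least 2-fold above control and 0 as far below it, with a median of 0.35. The squamous regulator TRIM29 read 166.4 and 468.7 at its brightest probe and differed by 1.86 there and by 1.55 at the other, and SFN, the 14-3-3 sigma protein of keratinocytes, read 284.2 and 482.5 (0.81). Both were counted in a list of desmosome and cornified envelope genes, of which 11 were measured, 6 above 0 and 5 below, with a median of 0.09; 2 were at least 1.5-fold higher and 0 as far below control. PPL differed by -0.48, PKP3 by -0.40, JUP by -0.38, DSP by 0.09, DSC2 by 0.23 and DSG2 by 0.24, and the cornified envelope genes IVL, SPRR1A, SPRR1B and SPRR3 were undetected.

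A small set of genes known from smooth muscle formed the next group. TAGLN, which encodes the actin-binding protein transgelin, read 110.9 in control, at the detection threshold, 1207.1 with miR-551a and 542.0 with miR-483-5p. It differed by 4.44 at that probe, 21.7-fold, and by 9.06-fold without background correction, and a further probe, undetected in control, gave at least 0.66. The smooth muscle gamma actin ACTG2 read 71.4, 777.3 and 315.0 and was undetected in control, which makes it at least 13.6-fold higher with miR-551a (5.87-fold without background correction). MYL9, the regulatory myosin light chain of contractile cells, read 77.0, 251.0 and 146.5 and was at least 3.68-fold higher (2.03-fold without background correction).

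Other smooth muscle genes went another way or were undetected. ACTA2, the smooth muscle alpha actin, read 405.1 in control and 259.5 with miR-551a (-0.91), and MYH11, DES and CNN1 were undetected in both. Among 22 measured genes of the general actin cytoskeleton, 2 were at least 2-fold and 3 at least 1.5-fold higher (TAGLN, MYL9 and the tubulin TUBA1C at 0.86), 0 were at least 1.5-fold lower, and the median was 0.23. ACTB differed by 0.38, MYL6 by 0.53 and TAGLN2 by 0.51.

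Several of these genes are textbook targets of serum response factor, SRF, which binds the CArG box; so are the immediate early genes EGR1 and FOS. Of TAGLN, ACTG2, MYL9, EGR1, FOS and CCN1, 3 matched the RefSeq promoter table (GRCh38.p14), and their 250 bases before the transcription start were searched for the CArG box, which reads alike on both strands. ACTG2 and EGR1 held 2 boxes each and FOS none in this window, and 312 of 27305 promoters in the table (1.14%) held at least 1. The 4 boxes are shown because the genes that carry them lay at opposite ends of the comparison, ACTG2 higher and EGR1 lower with miR-551a; the box is in capitals, and all 4 windows are on the plus strand.
ACTG2 box 110 bases before the start, chr2:73892888-73892917: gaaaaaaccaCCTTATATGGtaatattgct
ACTG2 box 73 bases before the start, chr2:73892925-73892954: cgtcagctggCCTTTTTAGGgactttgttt
EGR1 box 105 bases before the start, chr5:138465364-138465393: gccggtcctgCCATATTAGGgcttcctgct
EGR1 box 83 bases before the start, chr5:138465386-138465415: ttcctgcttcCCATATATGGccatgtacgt
A match of letters is a description and not evidence of binding.

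Immediate early transcription factors, which cells make within minutes of stimulation, were mostly lower. EGR1, a zinc finger factor, read 2313.3 in control, 991.4 with miR-551a and 1207.7 with miR-483-5p, 2.70-fold lower with miR-551a. The AP-1 subunit FOS read 3467.5, 1969.9 and 2413.6, a difference of -1.01 for miR-551a, and its relative FOSB 1137.1, 803.8 and 863.8 (-0.68). JUNB (-0.59) and KLF4 (-0.58) followed, while FOSL1, an AP-1 subunit that stays on with sustained signalling, was undetected in control and read 145.4 (at least 0.68). Of 14 measured members 10 had negative differences, 2 at least 2-fold and 4 at least 1.5-fold, and the median was -0.28.

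Feedback genes of the ERK pathway, whose levels follow growth factor signalling, split. EMP1, an epithelial membrane protein, read 210.7 in control and 666.4 with miR-551a (1.93), and the phosphatase DUSP4 111.5 and 177.9 (1.13). DUSP4 lay near the detection threshold in control and was 1.46-fold higher without background correction. The phosphatase DUSP6, a direct brake on ERK, differed by -1.02 and -0.62 at its 2 probes, and the ETS factor ETV4 by -0.74. The DUSP6 probe at -1.02 was 1.505-fold lower without background correction. DUSP1, another phosphatase, read 1383.5 and 1002.8 (-0.63), and the early response gene IER3 477.2 and 838.9 (0.77). Of 15 measured genes 4 were at least 1.5-fold above control and 3 as far below it, with a median of -0.26.

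Growth factor ligands and receptors likewise gave large values in both directions. EREG, which encodes the EGF receptor ligand epiregulin, read 155.7 in control, 278.8 with miR-551a and 172.6 with miR-483-5p (1.11 for miR-551a). Without background correction EREG was 1.64-fold higher with miR-551a. HBEGF, another ligand of the EGF receptor, read 179.8, 125.1 and 121.5 (-0.99) and lay near the detection threshold with miR-551a. The receptor tyrosine kinase KIT read 528.6, 266.5 and 276.5 at its brighter probe and differed by -1.33 as the mean of its 2 probes, FGFR3 read 673.4, 444.6 and 512.5 (-0.81), and EPHB4 differed by -0.49. EGFR itself differed by 0.41 and ERBB2 by -0.32.

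Genes often used as readouts of YAP, a cofactor that responds to cell spreading, were higher in most measured cases. ANXA1, an annexin that binds phospholipid, read 1458.2 in control, 4587.3 with miR-551a and 2840.6 with miR-483-5p, and differed by 1.56. F3, tissue factor of the clotting cascade, differed by 1.33 and 0.82 at its 2 probes, and the matricellular gene CCN1 read 323.6, 535.6 and 298.6 (0.76). CCN2 read 679.3, 928.9 and 458.9 at its brighter probe and differed by 0.34 over its probes; it and CCN1 were above control with miR-551a and below it with miR-483-5p. CRIM1 (-0.57) and AJUBA, undetected with miR-551a (at least 0.34 lower), went the other way. Of 7 measured members of 13 listed, 4 were at least 1.5-fold above control and 0 as far below it; the median was 0.69, and between 0.29 and 1.05 over the other settings. The caveolae genes CAV1 (92.1 in control, undetected, and 201.9, at least 2.71-fold, and 1.66-fold without background correction) and CAV2 (215.1 and 437.2, a difference of 1.20), and the TWEAK receptor TNFRSF12A (371.7 and 867.8, 2.39-fold) also stood higher.

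Secreted and inflammatory genes included both ends of the range. CXCL8, a neutrophil chemokine, read 1069.5 in control, 3085.3 with miR-551a and 1422.6 with miR-483-5p at its brighter probe, and its probes differed by 1.43 and 1.32. CXCL1 was undetected in control at 109.7 and read 163.4 (at least 0.96), CCL20 read 119.1 and 168.6 (0.81) and CXCL2 237.8 and 360.8 (0.68). CCL20 lay near the detection threshold in control. Of 12 measured chemokine and NF-kB feedback genes 5 were at least 1.5-fold above control and 0 as far below it. PLA2G2A, a secreted phospholipase of the intestinal crypt, read 329.2, 919.2 and 651.6 and was 2.98-fold higher with miR-551a.

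IL33, an alarmin cytokine stored in epithelial nuclei, read 1418.4 in control, 626.4 with miR-551a and 517.5 with miR-483-5p, 2.65-fold lower with miR-551a, whereas IL18 differed by -0.08. Among interferon-stimulated genes ISG15, a ubiquitin-like modifier, read 392.8, 217.2 and 190.1 (-1.21 for miR-551a), DDX60 was undetected with miR-551a (at least 0.95 lower) and the RNA sensor IFIH1 differed by -0.74. Of 18 measured interferon genes 3 were at least 1.5-fold below control and 0 as far above it, with STAT2 at -0.57 and IRF9 at -0.56.

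Genes that load peptides on MHC class I were lower in small steps. TAP1, the peptide transporter, read 1023.4 in control and 766.6 with miR-551a (-0.61), and the proteasome activator subunit PSME2 787.9 and 595.2 (-0.58). HLA-E and PSMB9 differed by -0.48, TAPBP by -0.43 and the light chain B2M by -0.42. Of 13 measured genes 10 had negative differences, of which 1 reached 1.5-fold, and the median was -0.37; PSME3, an activator of nuclear proteasomes that is not induced by interferon, differed by 1.10 at 1 probe (640.6 and 1426.4) and by 0.80 at the other.

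Genes of cell division were higher almost throughout. All 41 measured mitosis genes of 42 listed had positive differences, 23 of them at least 1.5-fold and 3 at least 2-fold, and none was 1.5-fold lower. The motor KIFC1, which focuses spindle poles, read 452.8 in control, 1193.8 with miR-551a and 918.0 with miR-483-5p (1.42 for miR-551a). ANLN, a scaffold of the cleavage furrow, read 357.6, 772.0 and 689.2 (1.15), and the spindle checkpoint gene MAD2L1 differed by 1.28 and 0.95 at its 2 probes. KIF23 (0.95), CCNA2 (0.91) and CDC20 (0.89) came next. The median was 0.62, ranging from 0.56 to 0.75 over the other settings, and it was 0.46 for the same genes in the miR-483-5p array, which shares the control.

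DNA replication genes were similar: 32 of 33 measured members had positive differences, 13 of them at least 1.5-fold, and the median was 0.56. MCM10, which helps to start replication forks, read 474.2 in control and 1033.1 with miR-551a at its brighter probe and differed by 1.13 over its probes. TK1, a thymidine kinase of S phase, read 653.4 and 1258.1 (0.88), and POLE2 (0.75), TYMS (0.69) and POLA2 (0.68) followed. ORC6, a subunit of the origin recognition complex, differed by 1.12 at 1 probe and by 0.14 at another.

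Histone genes did not follow them. Of 18 measured, 14 had negative differences, 7 at least 1.5-fold below control and 1 as far above it, with a median of -0.33. H2BC21 read 184.7 in control and 104.7, undetected, with miR-551a, at least 2.58-fold lower (1.60-fold without background correction), and H2AC6 (-0.89), H2AC18 (-0.86) and H3C10 (at least 0.80 lower) lay below control too. The member at least 1.5-fold above control was H2AX, the variant that marks DNA breaks, which read 149.7 and 239.8 (0.93).

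**Figure D3:**
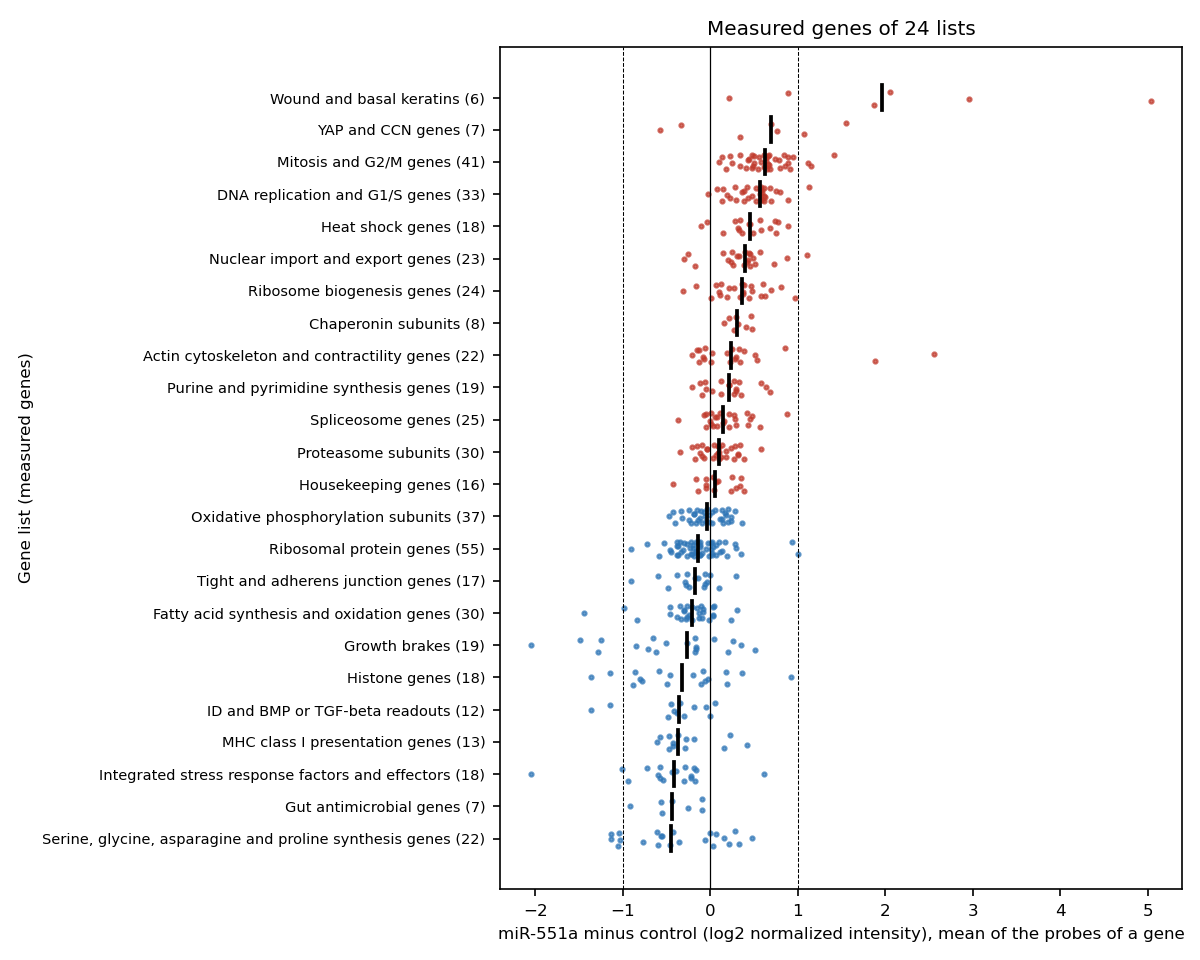
Log2 difference, miR-551a minus control, of each measured gene (points, the mean of its probes) in 24 gene lists, ordered by their median (black bars); red and blue mark lists with a positive or negative median, and the dashed lines mark 2-fold. All 41 mitosis genes and all 8 chaperonin subunits lie to the right of 0 and all 7 gut antimicrobial genes to the left.

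Genes that build ribosomes, and that carry proteins and RNA through the nuclear pore, were higher together with the division genes. SRM, spermidine synthase, read 333.8 in control and 635.4 with miR-551a (0.97), LYAR, a nucleolar growth regulator, differed by 0.81 over its 2 probes, and RRP12 by 0.69. NOP56 (0.62), POLR1G (at least 0.60) and PPAN (0.58) completed the leading members. Of 24 measured ribosome biogenesis genes 22 had positive differences, 5 at least 1.5-fold, with a median of 0.37. The importin KPNA2 read 658.7 and 1570.0 at its brighter probe and differed by 1.18 and 1.03 at its probes, the pore subunit NUP93 read 711.6 and 1384.5 (0.88), and the exportin CSE1L differed by 0.73 over 3 probes that ranged from 0.46 to 1.11. Of 23 measured transport genes 20 had positive differences, 3 at least 1.5-fold, and the median was 0.40.

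Protein folding genes were higher as well. CHORDC1, a cochaperone of HSP90, read 581.0 in control, 1116.2 with miR-551a and 699.2 with miR-483-5p (0.89 for miR-551a), the inducible HSP70 gene HSPA1B 3108.0, 5675.3 and 5052.5 (0.78), and HSPH1, an HSP70 nucleotide exchange factor, 1213.1, 2185.5 and 1628.7 (0.75). Of 18 measured heat shock genes 16 had positive differences, 5 at least 1.5-fold, and the median was 0.45. All 8 subunits of the cytosolic chaperonin, which folds actin and tubulin, lay between 0.16 and 0.48.

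Nucleotide and splicing genes differed less. Purine and pyrimidine synthesis genes had a median of 0.21, with 14 of 19 positive; CTPS1, which makes cytidine triphosphate, read 438.7 and 726.4 (0.69), and ADSS2, of adenosine monophosphate synthesis, differed by 1.03 at 1 probe and by 0.24 at its brighter one. Among spliceosome genes 20 of 25 were positive with a median of 0.14, led by HNRNPA1 at 0.88 (280.3 and 555.4 at 1 of its probes) and SRSF7 at 0.57.

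The ribosomal proteins themselves did not follow the ribosome assembly genes. Of 55 measured, 37 had negative differences and the median was -0.14; 2 were at least 1.5-fold above control and 3 as far below it. RPL15 read 6708.5 and 4766.2 (-0.59), RPL3 26323.9 and 19540.1 (-0.45), while RPS7 read 480.8 and 952.7 (1.00) and RPL29 differed by 1.22 and 0.64 at its probes. RPS29 was 2.55-fold lower at 1 probe and lay between -0.09 and 0.01 at 3 others, and RPS26 was at least 2.36-fold higher at a probe undetected in control and 0.08 at another.

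Against these, most brakes on growth were lower. DDIT4, which restrains the growth kinase mTORC1 under stress, had the largest negative difference among probes detected in both arrays: it read 1624.8 in control, 476.3 with miR-551a and 605.6 with miR-483-5p, 4.14-fold lower with miR-551a. TXNIP, an arrestin that limits glucose uptake, read 791.0, 389.0 and 421.9 (2.44-fold), and KLF9, a glucocorticoid-induced zinc finger factor, 405.6, 218.6 and 273.5 (2.37-fold). TSC22D3, the glucocorticoid-induced leucine zipper, read 205.7 in control and 113.1 with miR-551a at 1 probe (-1.58) and was undetected with miR-551a at the other, where it was at least 1.39 lower. Without background correction these probes were 1.76-fold and 1.62-fold lower. The cyclin-dependent kinase inhibitor CDKN1A read 1746.1, 1105.2 and 1257.6 (-0.85), and CCNG2, a cyclin of resting cells, differed by -0.71. Of 19 measured brakes 14 were below 0 and 5 above, with a median of -0.27. In this list 8 were at least 1.5-fold lower, 4 of these at least 2-fold, and 0 at least 1.5-fold higher. The p53-induced gene TP53INP1 read 171.5 and 111.9, undetected, at 1 probe (at least 1.20 lower) and differed by -0.57 at the other.

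Amino acid synthesis genes, which the transcription factor ATF4 turns on when amino acids run short, were lower from the serine branch to asparagine. PSAT1, a serine pathway aminotransferase, read 5086.8 in control, 2532.5 with miR-551a and 2243.0 with miR-483-5p (-1.14 for miR-551a). ASNS, asparagine synthetase, read 3789.1, 1706.0 and 1570.3 at its brighter probe (-1.37, and -0.89 at the other), and GPT2, a mitochondrial alanine transaminase, 1660.8, 925.1 and 884.3 (-1.05). PCK2, the mitochondrial PEP carboxykinase, lay between -1.53 and -0.39 at its 3 probes, CBS, of cysteine synthesis, read 159.6 and 113.3 (-1.03), and the first serine enzyme PHGDH 8799.6 and 5354.2 (-0.77). CBS lay near the detection threshold with miR-551a and was 1.40-fold lower without background correction. Of 22 measured genes 8 were at least 1.5-fold lower, 5 of them at least 2-fold, 0 were 1.5-fold higher, and the median was -0.44.

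The stress response effectors beside them gave a median of -0.42, with 17 of 18 below 0. Their lowest member was DDIT4 (-2.05), which the growth brakes hold too, so the lists are not separate. In the miR-483-5p array, which shares the control, the median of the same effectors was -0.49. NUPR1, a stress-induced chromatin protein, read 714.2 in control and 418.9 with miR-551a (-1.01), the pseudokinase TRIB3 1399.9 and 841.0 (-0.94), and STC2 1084.7 and 748.6 (-0.73). Of these genes ATF5 alone was above control (0.61). A probe listed under P8, an older name shared by several genes, differed by -1.22. Amino acid transporters were led by SLC38A2 (2803.1 and 1829.8, -0.80) and SLC6A9 (-0.79) and had a median of -0.14. Cytosolic tRNA synthetases did not share the difference as a list, with a median of 0.02 and 8 of 16 above 0, though CARS1 differed by -0.80; a probe under the ambiguous name SARS gave -1.12. The chaperones of the endoplasmic reticulum were likewise not lower, with a median of 0.11, CALR at 0.64 and HSPA5 at 0.56.

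Autophagy and lysosome genes had 19 of 23 members below 0. The autophagosome genes WIPI1 (234.1 in control and 160.1 with miR-551a, -0.91) and GABARAPL1 (315.4 and 207.6, -0.89) led, followed by the cargo receptor SQSTM1 (1377.1 and 985.0, -0.65). These 3 were the members past 1.5-fold, and the median was -0.12.

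Several members of a list of ID genes and readouts of BMP or TGF-beta signalling were among the lower ones. ID3, an inhibitor of helix-loop-helix factors, read 4398.5 in control, 1905.0 with miR-551a and 2507.6 with miR-483-5p (-1.36 for miR-551a), and ID1 differed by -1.35 and -0.94 at its 2 probes. SMAD7 (-0.49), HES1 (-0.45), TGFBI (-0.42) and SMAD6 (-0.38) were lower by less, ID2 differed by -0.18, and 10 of 12 measured members were below 0. RGMB, a BMP coreceptor, read 2358.5 and 1246.8 at its brightest probe and ranged from -1.10 to -0.29 over 3 probes.

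Genes of intestinal identity went both ways. CDX2, a homeobox factor that specifies intestine, read 1085.0 in control and 665.0 with miR-551a (-0.90), and GPA33, a surface antigen under its control, 1545.7 and 708.2 (-1.36). Other surface genes were higher: TM4SF4 read 133.2 and 283.3 (1.56), CEACAM5 503.9 and 966.4 (0.92) and CEACAM6 4255.6 and 8344.1 (0.90). Cadherin CDH17 differed by -0.48. Of 16 measured genes of intestinal identity 3 were at least 1.5-fold above control and 2 as far below it. The 17 measured colon epithelial markers had a median of 0.03, with 4 at least 1.5-fold above control and 2 as far below it, and their summed intensity was 48070.3 in control and 59561.9 with miR-551a.

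Mucins showed a like division. MUC5AC, a gastric-type secreted mucin, read 215.7 in control, 548.3 with miR-551a and 536.7 with miR-483-5p (1.57 for miR-551a), and the membrane mucin MUC17 250.5, 534.8 and 369.5 (1.22). SPINK4, a goblet cell peptide, read 917.9, 1941.5 and 1854.1 (0.99). MUC20 and MUC12 were undetected in control and at least 0.84 and 0.73 higher, whereas AGR2, needed for mucin folding, differed by -0.65 and MUC2, the main colonic mucin, by -0.40. The median over 13 measured genes was 0.26, and it turned slightly negative for genes detected in both arrays, with no detection filter, with a detection score above 0.95 and with the brightest probe of each gene.

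All 7 measured antimicrobial genes of the gut were below 0, with 1 at least 1.5-fold lower. PIGR, which carries IgA across the epithelium, read 410.7 in control and 260.8 with miR-551a (-0.92), REG4 2264.2 and 1742.9 (-0.56), and the Paneth cell defensins DEFA6 296.7 and 233.3 (-0.55) and DEFA5 168.6 and 146.3 (-0.44). Of 17 measured junction genes 15 were below 0, led by the tight junction scaffold TJP3 (565.0 and 350.7, -0.91) and CLDN2, a claudin that passes cations (-0.60), while CDH1 differed by -0.24.

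Lipid and drug metabolism genes were lower in small steps with a few large ones. ACOX2, a peroxisomal oxidase of branched fatty acids, read 943.9 in control, 419.7 with miR-551a and 463.3 with miR-483-5p, 2.72-fold lower with miR-551a. SCD, the stearoyl desaturase, read 11295.0, 6080.0 and 7741.0 (-0.99), and the desaturase FADS2 153.1, 116.6 and 117.5 (-0.84). FADS2 lay near the detection threshold with miR-551a. Of 30 measured fatty acid genes 24 were below 0 and 3 at least 1.5-fold lower, with a median of -0.21. Of 18 measured xenobiotic genes 13 were below 0, led by CYP3A5 (-0.77), UGT2B7 (-0.73) and CYP2J2 (-0.70). FABP5, a fatty acid carrier of skin, read 1774.6, 5255.5 and 3982.2 at its brighter probe (1.48).

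Of 18 measured enzymes that clear aldehydes and ketones 14 were above 0, 4 of them at least 1.5-fold and 1 at least 2-fold higher, and 0 were 1.5-fold lower. ALDH1A1, which makes retinoic acid, read 475.5 in control, 1283.0 with miR-551a and 997.3 with miR-483-5p (1.44, and 1.14 at its other probe), AKR1B10 446.4, 855.5 and 1066.7 (0.91) and AKR1C4 1732.8, 3508.4 and 3653.7 (0.89). AKR1C2 differed by 1.12 at 1 probe and by -0.27 at another. The ferritin heavy chain FTH1 read 2056.1 and 4271.7 (0.92), while the NRF2 antioxidant list that holds it had a median of 0.05.

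Of 15 measured metallothioneins and zinc transporters 11 were below 0, 2 of them at least 1.5-fold lower, and the median was -0.18. Metallothioneins bind zinc and copper. MT1F read 3226.1 in control and 1938.6 with miR-551a (-0.91), MT1G 10081.5 and 6779.3 (-0.62) and MT1A 10930.9 and 7779.4 (-0.56). MT4, a squamous form, read 250.6 in control and was undetected at 95.7 with miR-551a, at least 3.97-fold lower (2.13-fold without background correction). It was not a member of that list.

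Neighbours on a chromosome often shared a direction when both differed. Among compared genes ordered along the RefSeq chromosomes there were 9847 adjacent pairs, of which 49.7% differed in the same direction. In 81 pairs both genes were at least 1.5-fold different, and 58 of these (71.6%) went the same way. They include KRT16 and KRT17 on chromosome 17, KRT6A and KRT6B on chromosome 12, CAV1 and CAV2 and also MUC12 and MUC17 on chromosome 7, CXCL1 and CXCL8 on chromosome 4 and H2AC18 and H2BC21 on chromosome 1, all from gene families. Unrelated neighbours were also found, such as ALDH1A1 and ANXA1 on chromosome 9, both higher, and ACOX2 and FAM3D on chromosome 3, both lower. In each family pair named, 1 gene (KRT16, KRT6A, CAV1, MUC12, CXCL1 or H2BC21) was detected in only 1 of the arrays. The sign of its difference could not go the other way. The count makes no allowance for family members that share probe sequence or control.

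The creatine and adenylate kinases include the reported target. CKB read 510.5 in control, 356.9 with miR-551a and 377.2 with miR-483-5p, a difference of -0.70 at its single probe for miR-551a, past 1.5-fold and short of 2-fold. The mitochondrial creatine kinases CKMT1B (542.9, 751.3 and 622.4) and CKMT1A (1206.7, 1280.5 and 1287.8) differed by 0.39 and -0.03. GAMT, which makes creatine, differed by 0.36 over 2 probes and the creatine transporter SLC6A8 by 0.33. Of the adenylate kinases AK3 differed by -0.35 and AK1 by -0.22, and CKM, CKMT2 and GATM were undetected. Of the 8 measured genes CKB was the 1 that passed 1.5-fold. Negative differences of 1.5-fold or more were found in 450 of all 10991 genes (4.09%), so size alone did not set CKB apart. CKB also read below the shared control in the miR-483-5p array.

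Much of the transcriptome lay close to control. Housekeeping genes had a median of 0.05, proteasome subunits of 0.10, mitochondrial ribosomal proteins of 0.11, BCL2 family genes of 0.04 and microRNA machinery genes of 0.10, where XPO5 (0.44) was the largest difference. Oxidative phosphorylation subunits (-0.04), tricarboxylic acid cycle genes (-0.04), integrins and laminins (-0.11), WNT feedback genes (-0.02) and translation factors (-0.03) had medians near 0 that turned positive under median scaling, by at most 0.08. Glycolysis genes had a median of 0.06 with ALDOC at -0.93 and SLC2A1, the glucose transporter, at 0.61. In the WNT list NOTUM, a secreted WNT inhibitor, was undetected in control at 106.5 and read 166.2 (at least 1.00 higher on the log2 scale, and 1.39-fold without background correction), and the stem cell marker OLFM4 read 1489.9 and 2847.0 (0.81).

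The remaining genes with the largest differences mostly belonged to no list described above. Higher with miR-551a were S100A10, a partner of annexin A2 (2168.3 and 8126.7, 3.55-fold), the tubulin TUBA3D (2.42-fold), the actin-binding protein ENC1 (2.32-fold) and MTFR2 (listed as FAM54A, 1.05 at 1 probe and 0.68 at another). Among genes undetected in control, GPRC5A, a retinoic acid-induced receptor, was at least 3.04-fold higher, the matrix protein LUM at least 2.67-fold and TMEM201 at least 2.22-fold. Without background correction the same genes were 1.79-fold, 1.64-fold and 1.47-fold higher, short of 2-fold. HILPDA, DSCC1, EDNRB and RBL1 had bounds under 2-fold. LUM is a fibroblast marker, and the marker FAP of the same list was at least 2.41-fold lower (1.54-fold without background correction).

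Lower with miR-551a were the membrane receptor PAQR8 (1525.0 and 739.0, 2.42-fold), the ubiquitin ligase TRIM4 (2.26-fold, but -0.18 at its second probe), FAIM2 (2.20-fold), RFX5, a factor of MHC class II genes (2.14-fold), TTC17 (2.11-fold) and IGBP1 (2.03-fold). RTN1 differed by -1.08 at 1 probe and by -0.65 at the other, and H2BC5 by -1.14 and -0.42. PAQR8 and RFX5 read 1297.8 and 1084.7 in the miR-483-5p array, nearer to their control values of 1525.0 and 1478.7. Undetected with miR-551a was the kinase WNK4 (at least 2.73-fold lower, and 1.66-fold without background correction). PDE9A was undetected at both probes, with bounds of 1.40 and 0.11 below control on the log2 scale. USP25 was at least 2.14-fold lower (1.44-fold without background correction), and FCGR2A, LEMD1, SLITRK6 and ERV3-1, also undetected with miR-551a, were between 1.36-fold and 1.38-fold lower without background correction.

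**Figure D4:**
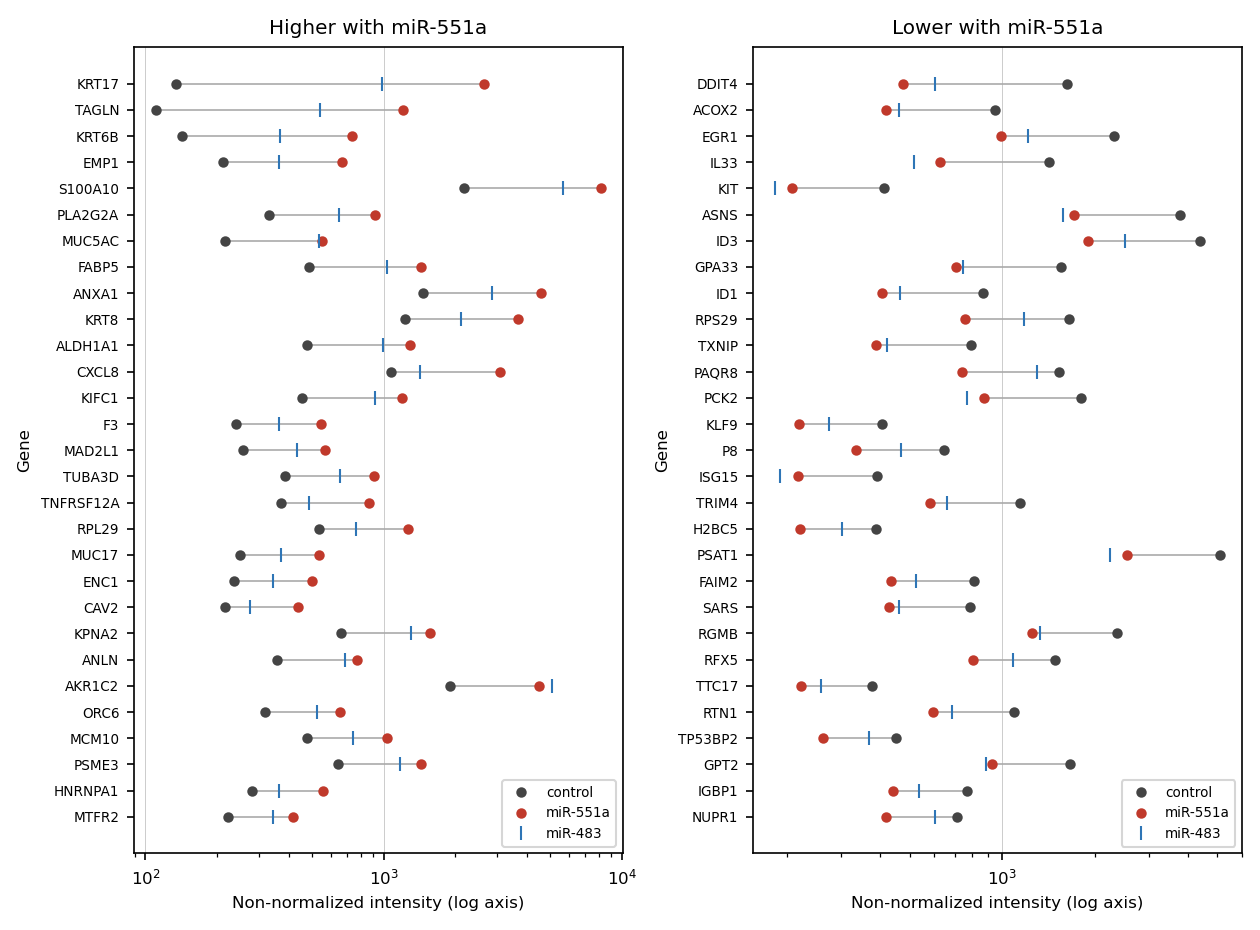
Non-normalized intensity (log axis) in the control, miR-551a and miR-483-5p arrays of genes with the largest differences each way among probes detected in both arrays and brighter than the median. KRT17 and TAGLN have the longest lines on the left and DDIT4 on the right; the miR-483-5p marks share the control array and are shown as values only.

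Beside the control they share, the arrays of both microRNAs can be read side by side. The 30 genes with the largest differences each way among brighter probes all read on the same side of control in both microRNA arrays. Their direction was thus not particular to miR-551a. Among the genes higher with miR-551a, KRT17, TAGLN, KRT6B, EMP1, ANXA1, KRT8 and CXCL8 read closer to control with miR-483-5p than with miR-551a, MUC5AC read nearly alike (548.3 and 536.7), and AKR1C2 read higher with miR-483-5p (4499.8 and 5079.3). Among the lower genes, the plotted probes of IL33, KIT, ASNS, PSAT1, PCK2, GPT2 and ISG15 read lower still with miR-483-5p, and the other plotted probes lay between miR-551a and control. At the other probe of KIT the order was reversed (266.5 with miR-551a and 276.5 with miR-483-5p), as it was at another of PCK2 (145.8 and 150.9). These values come from 1 array each, and from the non-normalized intensities: in the authors' normalized values the values labelled for miR-483 equal the raw miR-551a intensities times a single factor. The non-normalized columns of the 3 arrays differ from each other and were taken as labelled, which was not tested.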

How the data were processed

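Total RNA of LvM3b cells was labelled as biotinylated cRNA and hybridised to Illumina bead arrays, 1 per group, per the labels' protocols. The deposited values are bead intensity per probe, without normalization. Beside each stands the deposited detection score, a fraction near 1 for bright probes, so 0.99 was taken to mean p of 0.01. In the authors' normalized intensity values control is unchanged and miR-551a is multiplied by 0.968; these served as an alternative. Of the deposited columns of per-sample values, 5 were not used, among them the normalized values labelled for miR-483, which equal the raw miR-551a intensities times a single factor. Scanner software and probe build were not stated in the labels or headers.

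The 3 arrays were corrected and normalized jointly (limma 3.58.1, function neqc, R 4.3.3: background from detection scores, mean 76.2 in control and 79.0 with miR-551a, offset 16, quantile normalization on the log2 scale), and the code was tested on simulated data. Of 25200 symbols, 15712 matched a current RefSeq symbol, 3021 matched 1 gene by an older one and 6467 were kept as listed; 12646 UniGene clusters were left out. A gene is the mean of its member probes. Named genes were the 30 largest differences each way among brighter probes detected in both arrays and the 15 largest bounds each way, 1 probe per gene without provisional symbols, list members past 2-fold, up to 6 leading members of each list described, and all creatine and adenylate kinases; the few other genes named as comparators (such as EGFR, KRT5, CDH1, DLEU2 or FAM3D) were chosen after their values were seen. Some genes that these rules name are not reported here. Members, rules and the 69 lists were chosen with earlier results of these data known. No test was run; the number of arrays limits the precision.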

Additional observations from a re-analysis of the deposited data

How the results depend on the processing

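The counts of 92 higher and 79 lower probes became 38 and 28 without background correction, 52 and 44 with an offset of 50, 47 and 20 with the authors' deposited normalized values, and 47 and 35 among probes brighter than the median. With dim values left as measured, an alternative chosen after seeing the data, 138 probes were higher and 134 lower. The share of higher probes was 66.7% under median scaling and 70.1% with the deposited values, against 53.8%. The cause was not tested, except that an uncorrected background shrinks every ratio and that fewer probes were compared among the brighter ones (7019). Median centring, the control and miR-551a arrays alone, detection in both arrays, no detection filter and 1 probe per gene left these counts within 1.5 times. Among 115 named probes no value changed sign, and 181 of 890 moved by more than the scatter between probes of 1 gene (SD 0.221), all of them without background correction, with an offset of 50 or with the deposited values. List medians changed sign in 43 of 747 cases. Values near the background, such as those of KRT16, MYL9 and ACTG2 in control, limit the folds.

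No paired analysis was possible because each group has 1 array.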
